A study of Mus musculus with 7 samples.

Results

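The trophectoderm is the outer cell layer of the blastocyst, and 9 transcription factors that are known for roles in it and in the trophoblast that grows from it were followed here: Cdx2, Gata2, Gata3, Tfap2a, Tfap2c, Elf5, Tead4, Hand1 and Ascl2. They were chosen by name, with earlier results of these data known. All 9 were found in the GENCODE M1 annotation of the mouse genome, 7 by name and 2 by an older name, since M1 lists Tfap2a as Tcfap2a and Tfap2c as Tcfap2c. They are 9 of the 31498 genes that could be measured and of 37310 genes in that annotation. Of these 9 factors, Hand1 passed 3-fold above wild type in each of 3 clones that lack a distal Sox2 enhancer, Ascl2 did so in the clone that lacks it on both alleles, and none passed 3-fold below. In that biallelic clone both calls depend on the value added to the levels before ratios are taken.

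RNA-seq was performed on 4 clones of F123 cells, embryonic stem cells (ESCs) that carry a CAST and a 129 copy of each chromosome, with 1 library for each. The clones are wild type (WT), CAST+/129- (enhancer deleted on the 129 allele), CAST-/129+ (deleted on the CAST allele) and CAST-/129- (deleted on both). The deletion was made with a pair of CRISPR guides, transfected cells recovered under puromycin on mouse embryonic fibroblast feeders, and before harvest the cells were taken through passages on gelatin with no feeders. ChIP-seq libraries of H3K4me3 and H3K27ac from F123 cells and of H3K27ac from J1 cells, ESCs of 129 background, were also analysed, with 1 library for each and no deletion in their labels. Since each genotype is 1 clone and 1 library, the effect of the deletion cannot be told apart from differences between clones, and no difference between genotypes could be tested. Intervals in the text are exact 95% intervals and cover counting error only. They are narrower than those of independent fragments, because both mates and each spliced piece of a fragment can be counted.

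As background, the trophectoderm forms where cells on the outside of the embryo keep the Hippo pathway inactive, so that the coactivator Yap1 enters the nucleus and works with the DNA-binding factor Tead4. Tead4 acts upstream of Cdx2 and Gata3, Cdx2 opposes the ESC factor Oct4 (Pou5f1), and Tfap2c, Elf5 and Eomes hold trophoblast stem cells in their state. Hand1 drives the formation of trophoblast giant cells, and Ascl2, an imprinted gene expressed from the maternal copy, is needed for the spongiotrophoblast of the placenta. ESCs come from the inner cell mass and normally keep most of these genes low, and Elf5 is known as a gene that DNA methylation keeps silent in them. Sox2 and Oct4 bind DNA together at many ESC enhancers, and loss of either factor is known to let ESCs take on trophectoderm features.

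The RNA libraries held 24848422 alignments on genes in WT, 12458881 in CAST+/129-, 6058939 in CAST-/129+ and 5831199 in CAST-/129-. Levels are given as FPKM, alignments per kilobase of exon and per 1000000 alignments on genes. Sox2, the gene of the deleted enhancer, was at 175 FPKM in WT, 82.0 in CAST+/129-, 73.1 in CAST-/129+ and 7.40 in CAST-/129-, in the order that the labels imply. Pou5f1 was at 188, 132, 207 and 163 FPKM in the same order and passed 3-fold in none of the clones. Nanog was at 130, 115, 76.5 and 38.9 FPKM and passed 3-fold below WT in CAST-/129-.

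The promoters of 4 genes that the results turn on are printed next, those of Hand1, Elf5 and Tead4 for their differences between clones and that of Cdx2 for a motif found in it. Each is the 250 bases just upstream of the annotated start of the first exon that held RNA, 5′ to 3′ on the strand of the gene, from the mm9 genome. Capitals mark CG dinucleotides in Hand1 (chr11:57645650-57645899, minus strand), in Elf5 (chr2:103263969-103264218, plus strand) and in Tead4 (chr6:128250842-128251091, minus strand). In Cdx2 (chr5:148118847-148119096, minus strand) capitals mark the letters ATGCAAAT, the octamer that Oct4 is known to bind.
Hand1: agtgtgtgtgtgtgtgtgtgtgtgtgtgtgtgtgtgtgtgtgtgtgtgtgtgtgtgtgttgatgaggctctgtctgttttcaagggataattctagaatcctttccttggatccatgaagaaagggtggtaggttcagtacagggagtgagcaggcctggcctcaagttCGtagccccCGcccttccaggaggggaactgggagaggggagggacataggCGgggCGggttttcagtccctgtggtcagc
Elf5: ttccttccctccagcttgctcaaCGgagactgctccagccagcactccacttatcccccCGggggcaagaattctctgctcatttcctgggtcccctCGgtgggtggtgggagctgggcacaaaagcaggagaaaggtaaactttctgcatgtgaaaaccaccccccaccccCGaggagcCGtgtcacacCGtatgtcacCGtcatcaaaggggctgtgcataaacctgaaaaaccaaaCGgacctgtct
Tead4: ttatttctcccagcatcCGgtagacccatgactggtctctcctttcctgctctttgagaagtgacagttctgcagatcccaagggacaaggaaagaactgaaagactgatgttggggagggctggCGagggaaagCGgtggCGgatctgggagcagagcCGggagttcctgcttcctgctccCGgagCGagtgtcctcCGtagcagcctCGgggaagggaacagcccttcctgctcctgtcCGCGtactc
Cdx2: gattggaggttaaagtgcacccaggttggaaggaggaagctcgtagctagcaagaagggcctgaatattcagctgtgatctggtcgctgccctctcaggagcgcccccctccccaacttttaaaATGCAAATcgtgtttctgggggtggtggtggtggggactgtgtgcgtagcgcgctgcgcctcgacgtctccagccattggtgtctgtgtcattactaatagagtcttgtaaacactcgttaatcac

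The Hand1 window held 4 CG dinucleotides and begins with a long run of TG repeats. Elf5 held 8 and Tead4 and Cdx2 11 each, beside a median of 9 over 21959 promoters of protein-coding genes. These promoters, also used for the shares below, were taken at the 5′ end of each gene. The windows of Hand1, Elf5, Gata2 and Gata3 lie at inner starts, so that the comparison is not of like starts. The windows of Gata2, Gata3 and Ascl2 held 24, 19 and 19, and that of Tfap2a, taken at the 5′ end of the gene because its start exons held no RNA, held 9. The octamer was searched on both strands and stood in the Cdx2 window alone among the 8 read, starting 126 bases upstream of the start (position -126), and 1.60% of the promoters held it. The AP-2 core GCCNNNGGC, the letters that Tfap2a and Tfap2c are known to bind, stood at 3 places in the Gata3 window and at 1 in the Gata2 window, and 14.9% of promoters held it. The Gata2 window also held the TEAD core CATTCC, which 11.3% of promoters hold. The letters CATTGT, bound by Sox factors, AGATAA, bound by GATA factors, and the TATA box were found in none of the 8 windows, where 9.07%, 9.24% and 12.2% of promoters hold them. A match of letters is a description and does not show that a factor binds there.

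Changes are given as the log2 ratio of FPKM plus 4 to WT, with 3-fold (1.585 on this scale) as the rule for a call, both as in the methods of the study. The FPKM were counted anew here, and the numbers of genes that pass this rule differ from those the study reports. By this rule 1 of the 9 genes was up in CAST+/129-, where 0.321% of all 31498 genes were, and 1 was up in CAST-/129+, where 0.473% were. In CAST-/129- 2 of the 9 were up, against 0.819% of all genes. None was down, where 0.305%, 0.330% and 0.511% of all genes were. The pseudo-value of 4 compresses genes of a few FPKM, so that the plain ratio of FPKM is also given for each. By that ratio, 7 of the 9 were above WT beyond the counting interval in CAST+/129-, 7 in CAST-/129+ and 6 in CAST-/129-, where 19.0%, 17.7% and 18.4% of all genes were. One gene, Tead4, was below WT beyond the counting interval in each clone, where 21.5%, 20.3% and 20.9% of all genes were. The median log2 ratio of the 9 was 0.74, 0.80 and 0.46 in CAST+/129-, CAST-/129+ and CAST-/129-, and 0 over all genes tested in each clone. With the pseudo-value, genes of few or no alignments hold that last median at 0. Over the 13826 genes with a mean of at least 1 FPKM it was -0.03, -0.06 and -0.08.

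**Figure D1:**
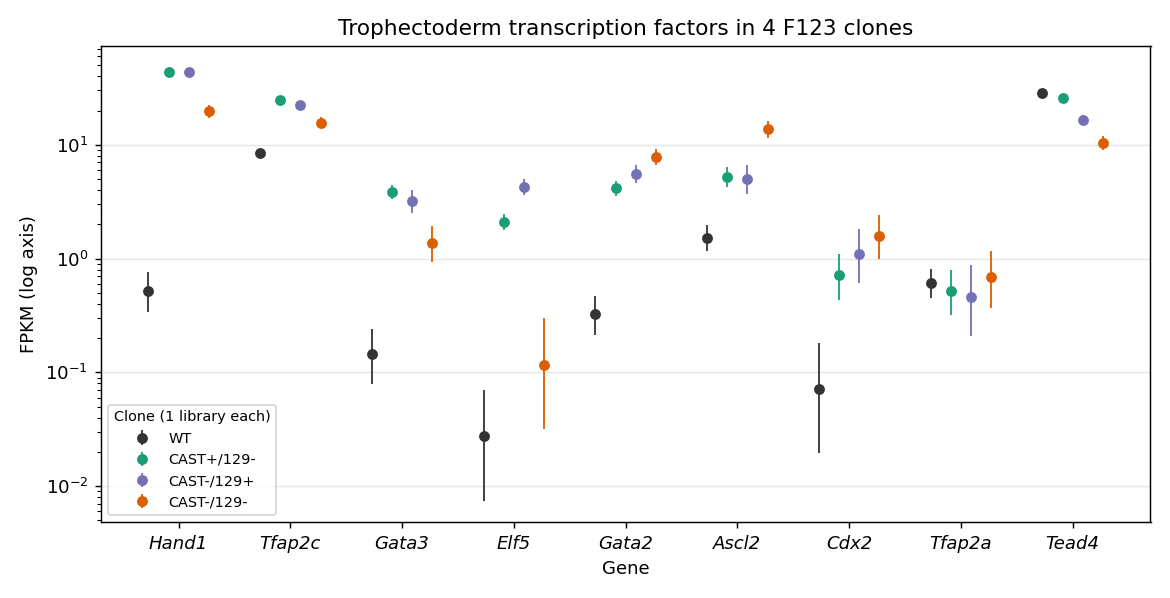
FPKM of the 9 transcription factors on a log axis, 1 point for each of 4 clones, with bars for the exact 95% counting interval of the single library. Hand1 lies at 0.524 FPKM in WT and at 19.8 to 43.9 in the deletion clones, whereas Tead4 lies highest in WT, at 28.3.

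Hand1, a basic helix-loop-helix factor of trophoblast giant cells that also acts in mesoderm and heart, had the highest log2 ratio of FPKM plus 4 of the 9 in each deletion clone. Hand1 (ENSMUSG00000037335.7, chr11:57642207-57646320, minus strand) had 26, 1092, 530 and 230 alignments in WT, CAST+/129-, CAST-/129+ and CAST-/129-, that is 0.524, 43.9, 43.8 and 19.8 FPKM. Hand1 was low in WT, highest in both monoallelic clones and intermediate in the biallelic clone. The log2 ratios were 3.40, 3.40 and 2.39, and the plain ratios were 83.8-fold (interval 56.9 to 129), 83.6-fold (56.4 to 129) and 37.7-fold (25.1 to 58.9). With a pseudo-value of 10 in place of 4, Hand1 was still called in both monoallelic clones and no longer in CAST-/129-. Both monoallelic clones were within counting error of each other, at a ratio of 1.002 (0.902 to 1.11). Hand1 also stands in the list of raised genes that the study made from these libraries, so that this list is not independent evidence of its direction. Of the annotated exons, the 91-base distal exon held 0 alignments in every library. The RNA lay in the 904-base exon, with 11, 461, 218 and 89 alignments, and in the 1002-base last exon, with 15, 631, 312 and 141.

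Tfap2c, an AP-2 factor of the trophectoderm that also acts in germ cells, was already transcribed in WT. Its alignments (ENSMUSG00000028640.5, chr2:172375093-172384122, plus strand) numbered 776, 1131, 497 and 336 in WT, CAST+/129-, CAST-/129+ and CAST-/129-. The levels were 8.49, 24.7, 22.3 and 15.7 FPKM. Every deletion clone was above WT, by 2.91-fold (2.65 to 3.19), 2.63-fold (2.34 to 2.94) and 1.85-fold (1.62 to 2.10), with log2 ratios of 1.20, 1.07 and 0.65 that stayed under the rule for a call. Each ratio lay above its interval in other ways of counting. With reads counted before collapsing the ratios were 359%, 359% and 261% of WT, and with reads thinned to the smallest library 387%, 343% and 255%. Both monoallelic clones were within counting error of each other, at 1.11 (0.995 to 1.23).

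Tfap2a, the AP-2 factor better known for surface ectoderm and neural crest, stayed low. Tfap2a (ENSMUSG00000021359.8, chr13:40811044-40829192, minus strand) had 49, 21, 9 and 13 alignments in WT, CAST+/129-, CAST-/129+ and CAST-/129-, or 0.608, 0.520, 0.458 and 0.687 FPKM. None of the clones differed from WT beyond the counting interval, which reached from 0.487 to 1.45 times WT in CAST+/129-, from 0.325 to 1.55 in CAST-/129+ and from 0.563 to 2.12 in CAST-/129-. Both exons that hold annotated starts had 0 alignments in all 4 libraries, and 37, 6, 5 and 8 of the alignments lay in the last exon. RNA at its annotated start exons was thus not detectable at this depth.

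Tead4, the factor through which the Hippo pathway acts in the trophectoderm, was the only 1 of the 9 that was lower in every deletion clone. Tead4 (ENSMUSG00000030353.9, chr6:128174306-128250841, minus strand) had 2527, 1149, 362 and 218 alignments in WT, CAST+/129-, CAST-/129+ and CAST-/129-. The levels were 28.3, 25.6, 16.6 and 10.4 FPKM, and their counting intervals did not overlap between any pair of clones. Those of WT, from 27.19, and of CAST+/129-, up to 27.17, nearly met. Since such intervals are narrower than those of independent fragments, these 2 clones are not clearly separated. The levels amounted to 90.7% (84.5 to 97.3), 58.7% (52.5 to 65.6) and 36.8% (31.9 to 42.2) of WT, and the log2 ratios were -0.12, -0.65 and -1.16. Tead4 was also the only 1 of the 9 with more than 8 intronic alignments on the sense strand in any library, 1217 in WT and 303, 119 and 66 in the deletion clones. The intronic RNA stood at 49.7% (43.6 to 56.4), 40.1% (32.9 to 48.4) and 23.1% (17.8 to 29.6) of WT, each below the figure for the exons. The share of all alignments that lay on exons of genes was 73.8% in WT and 76.1%, 70.3% and 77.2% in the deletion clones, and the part of this difference in the intronic values was not tested. Intronic RNA was counted in distinct alignments only, and was not recomputed with reads before collapsing or after thinning. WT was the deepest library, with 2.58 reads per distinct alignment against 2.02, 2.03 and 1.84. The part of depth in the gap between introns and exons was not tested.

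Gata2 and Gata3, zinc finger factors of the trophectoderm that also act in blood and in T cells, were both low in WT and higher in the deletion clones. Gata2 (ENSMUSG00000015053.8, chr6:88143885-88157024, plus strand) had 27, 174, 113 and 152 alignments in WT, CAST+/129-, CAST-/129+ and CAST-/129-, or 0.324, 4.17, 5.57 and 7.78 FPKM. It was highest in the biallelic clone, and each deletion clone was above WT beyond counting error. From CAST+/129- to CAST-/129+ the ratio was 1.34 (1.04 to 1.70), and from CAST-/129+ to CAST-/129- it was 1.40 (1.09 to 1.80). Since such intervals are narrower than those of independent fragments, the clones in each of these pairs are not clearly separated. The ratios to WT were 12.9-fold (8.54 to 20.1), 17.2-fold (11.2 to 27.2) and 24.0-fold (15.9 to 37.6), and the log2 ratios of 0.92, 1.15 and 1.45 stayed under the rule for a call.

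Gata3 (ENSMUSG00000015619.9, chr2:9778705-9811661, minus strand) had 14, 188, 76 and 31 alignments in WT, CAST+/129-, CAST-/129+ and CAST-/129-, or 0.144, 3.87, 3.22 and 1.36 FPKM. In contrast to Gata2 it was lower in the biallelic clone than in both monoallelic clones, which were within counting error of each other at 1.20 (0.917 to 1.59). The ratios to WT were 26.8-fold (15.6 to 49.9), 22.3-fold (12.5 to 42.6) and 9.44-fold (4.87 to 19.2), with log2 ratios of 0.92, 0.80 and 0.37. The last of the ratios was 1438% of WT with reads counted before collapsing. The 110-base distal exon of Gata2 and the 218-base distal exon of Gata3 held 0 alignments in all libraries, whereas the exon at the inner start of Gata2 held 2, 14, 4 and 14 and that of Gata3 held 0, 10, 2 and 3.

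Elf5, an Ets factor of trophoblast stem cells and of mammary epithelium, was seen almost only in the monoallelic clones. Elf5 (ENSMUSG00000027186.8, chr2:103251845-103291146, plus strand) had 4, 155, 152 and 4 alignments in WT, CAST+/129-, CAST-/129+ and CAST-/129-. The levels were 0.0274, 2.12, 4.27 and 0.117 FPKM. WT and the biallelic clone were within counting error of each other, at a ratio of 4.26 (0.794 to 22.9) that was 170% with both strands counted, and both monoallelic clones were above either of them. The level in the biallelic clone was 0.0551 times that in CAST+/129- and 0.0273 times that in CAST-/129+. The ratios to WT of 77.3-fold (29.6 to 287) and 156-fold (59.6 to 579) rest on 4 WT alignments and moved by up to 2.51 times between ways of counting, while the log2 ratios were 0.60 and 1.04 and stayed under the rule for a call. The exon at chr2:103264219-103264345, which holds annotated starts, carried 13 and 12 alignments in CAST+/129- and CAST-/129+ and 0 in the other two libraries. The distal exon, 440 bases long, held 0 in all 4, and the introns held 0 on the sense strand in all 4.

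Cdx2, a caudal-type homeobox factor that acts early in the trophectoderm and later in the gut, was the lowest of the 9 in the monoallelic clones after Tfap2a. Cdx2 (ENSMUSG00000029646.3, chr5:148112381-148118846, minus strand) had 4, 20, 15 and 21 alignments in WT, CAST+/129-, CAST-/129+ and CAST-/129-, or 0.0712, 0.710, 1.09 and 1.59 FPKM. All deletion clones were above WT, by 9.97-fold (3.34 to 40.1), 15.4-fold (4.90 to 63.7) and 22.4-fold (7.55 to 89.6), on 4 WT alignments. With reads counted before collapsing these ratios were 1680%, 3273% and 4730% of WT. The log2 ratios were 0.21, 0.32 and 0.46. CAST-/129+ did not differ beyond counting error from either of the other deletion clones, and CAST-/129- was above CAST+/129- by 2.24-fold (1.16 to 4.36). Since this interval is narrower than that of independent fragments, CAST-/129- and CAST+/129- are not clearly separated.

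Ascl2, a basic helix-loop-helix factor of the spongiotrophoblast, was the other gene past 3-fold. Ascl2 (ENSMUSG00000009248.5, chr7:150152727-150155169, minus strand) had 61, 105, 49 and 129 alignments in WT, CAST+/129-, CAST-/129+ and CAST-/129-, or 1.52, 5.23, 5.02 and 13.7 FPKM. It was lowest in WT and highest in the biallelic clone, and both monoallelic clones were within counting error of each other at 1.04 (0.736 to 1.49). The ratios to WT were 3.43-fold (2.48 to 4.79), 3.29-fold (2.21 to 4.88) and 9.01-fold (6.60 to 12.4), and the log2 ratios were 0.74, 0.71 and 1.68. The last of these is just past the rule for a call and fell below it when all alignments of the library were used as the library size. With reads thinned to the smallest library the 3 ratios were 551%, 551% and 1564% of WT, and with reads counted before collapsing the last was 1400%.

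The 9 genes thus fell into different orders across the deletion clones. Gata3, Tfap2c, Elf5, Tead4 and Hand1, 5 of the 9, were lower in CAST-/129- than in both monoallelic clones beyond counting error, where 8.04% of all genes were. Gata2 and Ascl2, 2 of the 9, were higher in CAST-/129- than in both, where 8.85% were. For Gata2 this rests on a ratio of 1.40 (1.09 to 1.80) to CAST-/129+, which does not clearly separate these clones. Cdx2 and Tfap2a were in neither set. These comparisons share the CAST-/129- library. In bulk RNA, fewer cells that express a gene and less RNA for each such cell cannot be told apart.

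The genes whose pattern lay nearest to Hand1 and Ascl2 were taken over 3 log2 ratios to WT and 13826 genes with a mean of at least 1 FPKM. Nearest to Hand1 was Rhox9, a homeobox gene of the placenta and germ line, at 0.950 FPKM in WT and 41.6, 43.8 and 20.9 in CAST+/129-, CAST-/129+ and CAST-/129-, at a Euclidean distance of 0.246. The next were Gm10715 and Gm10716, at distances of 0.455 and 0.495. Nearest to Ascl2 were Lrrc17 at 0.0772, Wisp1 at 0.112 and Plat, the gene of tissue plasminogen activator, at 0.112. With 3 ratios that share the WT library, such a likeness is a description. Only the 9 factors were left out of this search, and Rhox9 is itself in the list of other trophoblast genes read below.

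Promoter marks were counted as alignments within 2 kb on each side of the 5′ end of each gene, as a multiple of the genome mean of the library, with 5 times the mean as the rule. H3K4me3, a mark of active and of poised promoters, passed this rule at 3 of the 9 genes, while 46.7% of 21964 protein-coding promoters did. Tfap2c had 156 alignments (14.5 times the mean, interval 12.3 to 17.0), Tead4 117 (10.9 times, 8.99 to 13.0) and Ascl2 55 (5.11 times, 3.85 to 6.65). The other 6 lay between 1.30 times at Elf5, with 14 alignments, and 4.27 times at Tfap2a, with 46, beside a median of 4.18 over all protein-coding promoters. Ascl2 fell under the rule with reads counted before collapsing and against the mean of its own chromosome, and Tfap2a passed it in a window of 1 kb and at the transcript start with the most alignments. At the inner starts that carried RNA, Gata2 had 48 alignments (4.46 times) against 35 at its 5′ end, Gata3 had 49 (4.55 times) against 28 and Elf5 had 30 (2.79 times) against 14, all under the rule.

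H3K27ac, a mark of active promoters and enhancers, passed the rule at 2 of the 9 genes in F123, where 28.9% of protein-coding promoters did, and at 1 in J1, where 23.1% did. Tead4 had 13 alignments in F123 (5.44 times the mean, 2.90 to 9.31) and 59 in J1 (5.03 times, 3.83 to 6.49). Tfap2c had 12 in F123 (5.02 times, 2.60 to 8.77) and 39 in J1 (3.33 times, 2.36 to 4.55). Hand1 had 0 alignments in F123 at its 5′ end, which at a floor of 3 alignments allows up to 1.26 times the mean, and 17 in J1 (1.45 times). At the inner start of Hand1 that carried RNA there was 1 alignment in F123 (0.419 times, 0.0106 to 2.33) and again 17 in J1. The lower ends of the intervals at Tead4 and Tfap2c lay under 5 times the mean, and against the mean of its own chromosome Tfap2c fell under the rule in F123. The F123 library is shallow, with 2.39 alignments expected in such a window, so that the other 6 genes, with 1 to 5 alignments there, were not resolved from the mean. In J1, with 11.7 expected, they lay between 1.02 times at Gata2 and 2.05 times at Tfap2a. The promoters of Sox2, Pou5f1 and Nanog, read as a check, stood at 116, 138 and 74.9 times the mean in F123. Tfap2c and Tead4, past the rule for both marks in F123, were also the members with the highest FPKM in WT.

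**Figure D2:**
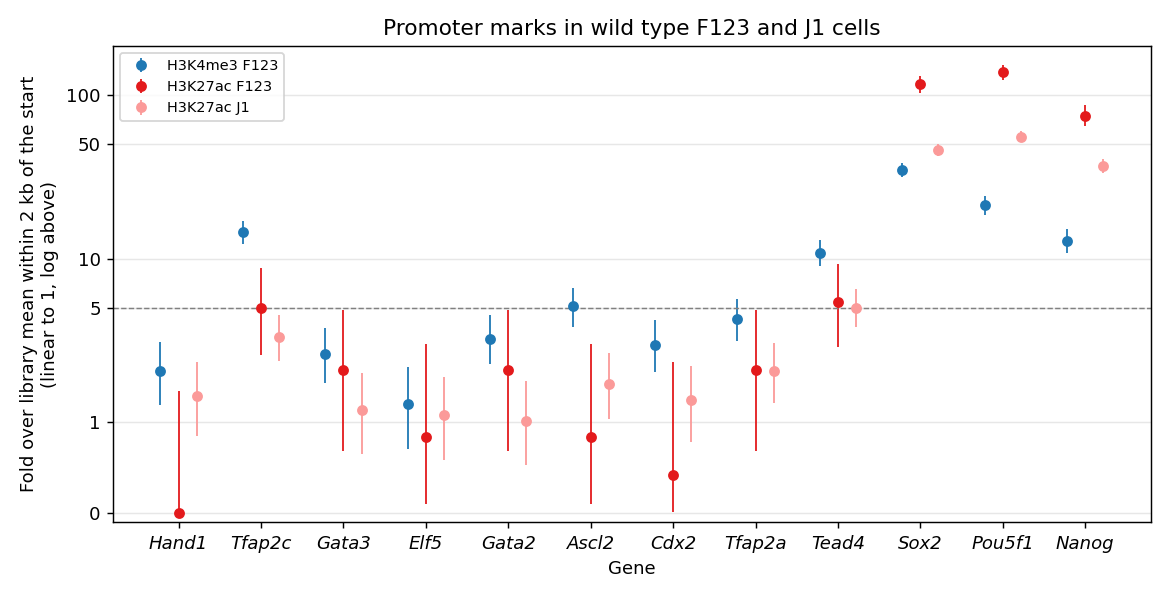
Alignments within 2 kb of the annotated 5′ end of the gene as a multiple of the library mean, for 9 transcription factors and for Sox2, Pou5f1 and Nanog, in 3 ChIP-seq libraries, with exact 95% counting intervals and a dashed line at 5 times the mean (axis linear up to 1 and logarithmic above). Tfap2c and Tead4 lie above the line for H3K4me3, at 14.5 and 10.9, and Hand1 has no H3K27ac alignment in F123 at that end.

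H3K27ac was also read in 1 kb bins over each gene and 50 kb on each side, with a bin counted where it passed 5 times the mean in both F123 and J1, a rule chosen after the data were seen. Such bins made up 1.79% of the genome, and 31.4% of protein-coding genes had none. Tead4 had 30 of 177 bins and Tfap2c 16 of 110, shares above those of 93.7% and 91.5% of protein-coding genes. Ascl2 had 10 of 104, Tfap2a 7 of 119, Hand1 7 of 105, Gata2 4 of 115 and Elf5 1 of 141, whereas Cdx2 and Gata3 had 0 of 107 and 0 of 134. In the shallow F123 library 3 alignments in a bin were enough to pass, at 5.02 times the mean. The only bin of Elf5, which lay over the gene Cat, rested on such a count. Bins near a gene need not act on it.

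At Tead4, joined bins formed a 17000-base region inside the gene, centred 17.3 kb downstream of its start (chr6:128225001-128242000), with 219 alignments in F123 (21.6 times the mean) and 685 in J1 (13.7 times). A 6000-base region at its start (chr6:128245001-128251000) had 64 and 188 alignments, or 17.9 and 10.7 times the mean. The bins counted for Tead4 also took in neighbouring genes. An 8000-base region lay over Tulp3 (chr6:128282001-128290000), at 22.6 times the mean in F123 and 11.1 in J1, and a 2000-base region over Gm10010. At Tfap2c the strongest region lay 30.6 kb upstream, outside annotated genes (chr2:172341001-172348000), with 98 alignments in F123 (23.4 times) and 375 in J1 (18.3 times). Tfap2a, whose start exons held no RNA, had a 10000-base region over its 3′ part (chr13:40809001-40819000), with 111 and 233 alignments (18.6 and 7.95 times). The H3K4me3 over that region of Tfap2a was 3.42 times the mean on average but uneven, with 47 alignments (17.5 times) in the 1 kb bin at its edge, centred 10.5 kb downstream of the start of the gene. Gata2 had 1 region of 4000 bases 45.7 kb upstream (chr6:88101001-88105000), at 30.6 and 14.8 times the mean. Around Hand1 the largest region covered the start of the neighbouring gene Sap30l, which was at 30.9, 25.4, 27.2 and 28.0 FPKM in WT, CAST+/129-, CAST-/129+ and CAST-/129- and so did not follow Hand1. The 11000-base region near Ascl2 lay over Tspan32 and Gm15024.

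**Figure D3:**
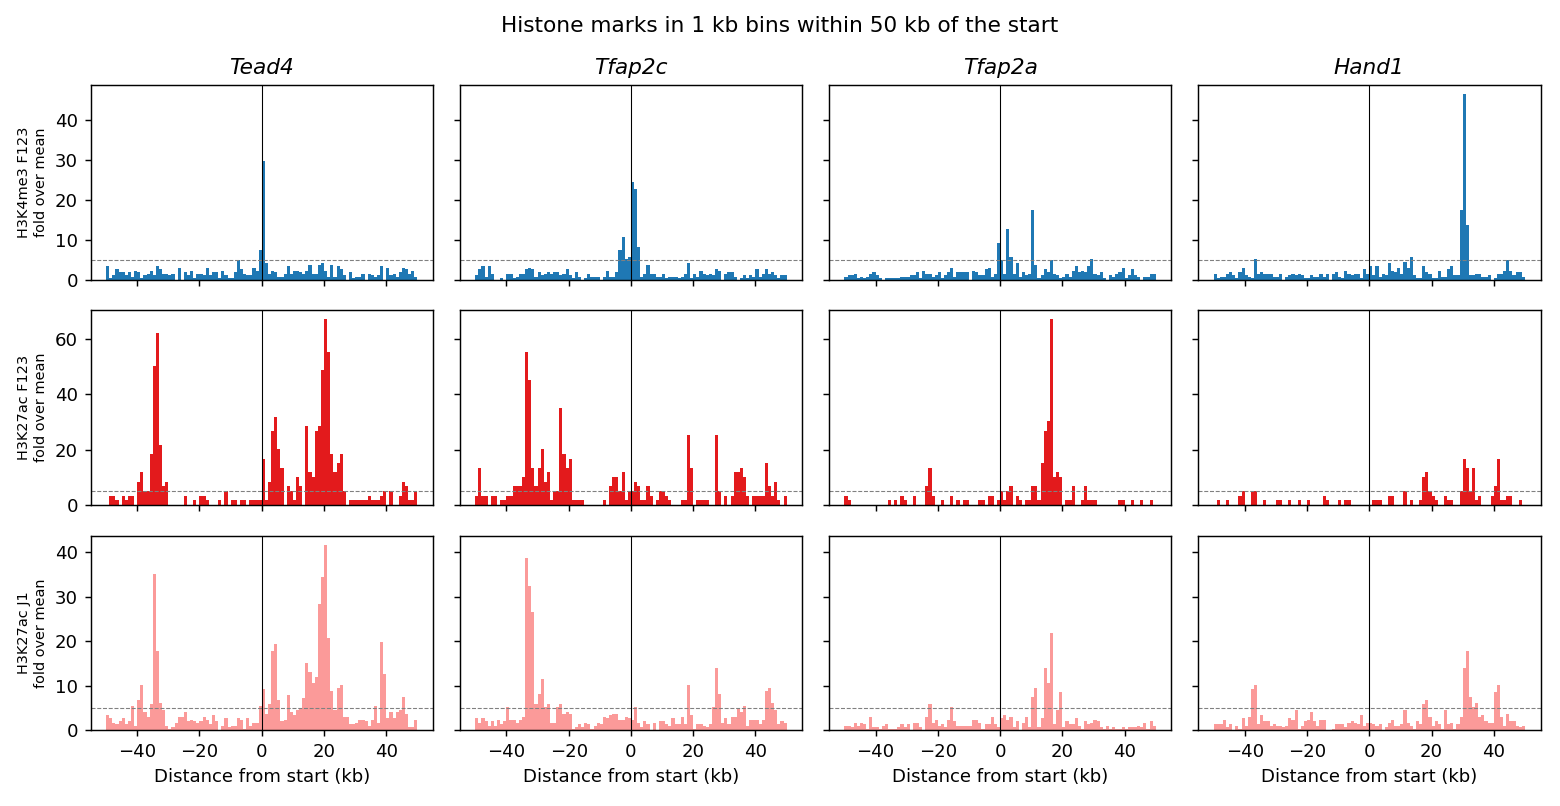
ChIP-seq alignments in 1 kb bins as a multiple of the library mean against distance from the start of Tead4, Tfap2c, Tfap2a and Hand1 (positive is downstream), with 1 row for each of 3 libraries and a dashed line at 5 times the mean. Tead4 shows a block of H3K27ac centred 17.3 kb downstream of its start in both lines, and Hand1 stays at or under 3.41 times the mean of H3K27ac in the bins within 3 kb of its start.

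The 300 bases with the most H3K27ac alignments in the region inside Tead4 are printed because Tead4 was the gene with the highest share of marked bins (chr6:128230218-128230517, given on the plus strand of mm9). They held 22 alignments in F123 and 60 in J1. Capitals mark the only match to the 6 motifs searched, the TEAD core CATTCC, which 15.9% of 300-base windows on chromosomes 2, 6 and 13 hold, so that such a match is common.
Tead4 intron: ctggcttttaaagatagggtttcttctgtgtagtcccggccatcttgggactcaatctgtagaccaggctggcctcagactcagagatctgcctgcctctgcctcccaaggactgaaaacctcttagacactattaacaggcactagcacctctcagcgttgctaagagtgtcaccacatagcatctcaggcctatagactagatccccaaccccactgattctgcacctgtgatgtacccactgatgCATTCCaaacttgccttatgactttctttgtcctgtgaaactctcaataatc

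The Hippo pathway, which sets whether Yap1 can work with Tead4, was followed by a list of 16 genes, among them Tead1, Tead2 and Tead3, which bind DNA as Tead4 does and are also counted among its paralogs. Amot, the gene of the scaffold angiomotin, was the only 1 past 3-fold, up in CAST-/129+ and CAST-/129-. It was at 8.48 FPKM in WT, 3.43 in CAST+/129-, 66.2 in CAST-/129+ and 38.4 in CAST-/129-, so that it was lower in 1 monoallelic clone and higher in the other. Yap1 was at 22.1, 24.1, 26.7 and 27.9 FPKM, and Tead1, the highest of the list in WT, at 37.3, 29.0, 24.8 and 28.9, neither past 3-fold. Of the genes that were not called, 2 are given that were chosen after their values were seen. Wwtr1, the paralog of Yap1, was at 27.1, 6.89, 14.1 and 22.7 FPKM, below WT beyond counting error in each deletion clone. The kinase gene Lats2 was at 0.699, 3.72, 2.65 and 4.67 FPKM, above WT beyond counting error in each. The median log2 ratio of the list was -0.12, 0.03 and 0.13.

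Of 22 paralogs of the 9 factors, 21 were matched and measured, and none was up past 3-fold. Gata6, a factor of primitive endoderm, was down in all deletion clones, at 42.9 FPKM in WT and 2.94, 6.77 and 4.51 in CAST+/129-, CAST-/129+ and CAST-/129-. Gata4, another such factor, was down past 3-fold in CAST+/129- only by this rule, at 17.4, 1.83, 13.0 and 3.95 FPKM. Within the Gata family, Gata2 and Gata3 were thus above WT in the same clones in which Gata6 was below it.

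A list of 28 other genes of trophoblast stem cells and trophectoderm had 8, 11 and 11 genes up past 3-fold in CAST+/129-, CAST-/129+ and CAST-/129-, and 0, 0 and 3 down. Past 3-fold, 0.321%, 0.473% and 0.819% of all genes were up and 0.305%, 0.330% and 0.511% were down. In the list, 22, 20 and 21 genes were above WT beyond counting error and 2, 5 and 5 were below. Its median log2 ratio was 0.67, 0.74 and 0.61, and its lowest was -1.49, -1.32 and -2.04. Eomes, which acts with Elf5 and Tfap2c in trophoblast stem cells and also marks mesoderm, was at 3.89, 18.3, 28.3 and 13.1 FPKM in WT, CAST+/129-, CAST-/129+ and CAST-/129-, and was called in CAST-/129+. Id2, an inhibitor of helix-loop-helix factors, was called in all 3 clones, at 2.98, 62.6, 46.5 and 22.4 FPKM, lowest of the deletion clones in the biallelic clone as Hand1 was. Rhox6, a homeobox gene next to Rhox9, was at 3.19, 129, 135 and 74.5 FPKM. Rhox9, whose levels are given above, is also in this list, and both were called in all 3 clones. The simple epithelial keratin Krt18 was at 1.81, 133, 229 and 231 FPKM and its partner Krt8 at 14.6, 139, 264 and 279, with no lower level in the biallelic clone. Krt7, Krt19 and Cldn6 were also called in all 3 clones. Plet1, a surface protein of trophoblast progenitors, was called in CAST-/129+, Dsp in CAST-/129+ and CAST-/129-, and Lgals3 and Cldn4 in CAST-/129-. The 3 genes down in CAST-/129- were Bmp4, Aqp3 and Atp1b1. Of these genes, Krt7, Krt8, Krt18, Krt19 and Cldn6 also stand in the list of raised genes that the study made from these libraries, and their direction there is not independent evidence.

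A list of 20 genes of differentiated trophoblast had 3, 7 and 6 genes up past 3-fold and none down. In this list, 14, 16 and 13 genes were above WT beyond counting error and 1 was below in each clone. Plac1, a placental membrane protein, was at 0.0577 FPKM in WT and 17.4, 12.1 and 10.6 in the deletion clones. Prl3d1, a hormone of trophoblast giant cells, had 0 alignments in WT, 10 in CAST+/129-, 129 in CAST-/129+ and 0 in CAST-/129-. With the WT count taken at a floor of 3 alignments, Prl3d1 was at least 176-fold higher in CAST-/129+ than in WT. It was thus seen mainly in 1 of the clones in which Hand1 was highest, and the other, with the same Hand1 level, had few alignments. Peg10 and Slc16a3 were called in all 3 clones as Plac1 was, Prl2c2 and Plac8 in CAST-/129+ and CAST-/129-, Cited1 in CAST-/129+ and Phlda2 in CAST-/129-. Tpbpa, the marker of spongiotrophoblast, was at 0, 0, 0.962 and 0.500 FPKM, beside an Ascl2 level that was highest in CAST-/129-.

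**Figure D4:**
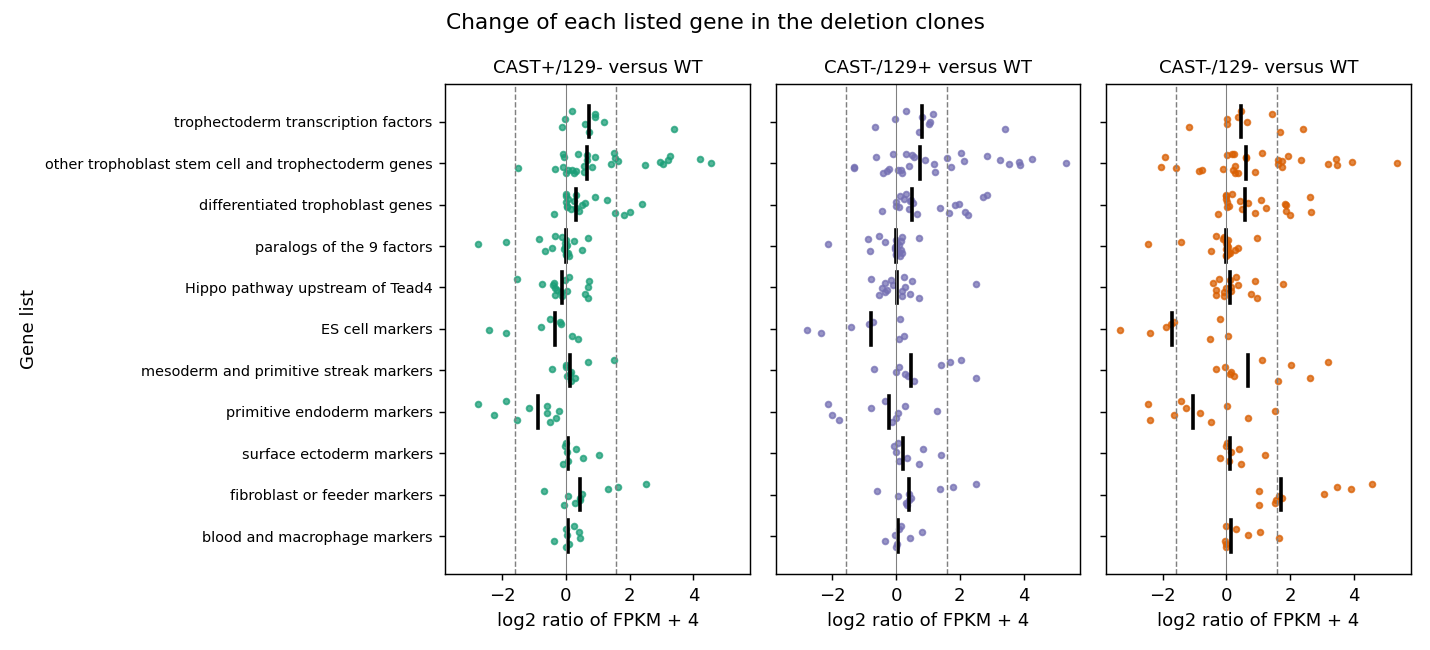
Log2 ratio of FPKM plus 4 to WT for each gene of 11 lists in 3 deletion clones, with 1 point for each gene, a black bar at the median and dashed lines at 3-fold. The lists of trophectoderm and trophoblast genes have medians above 0 in each clone, as do the mesoderm, surface ectoderm, blood and fibroblast markers. Fibroblast markers have their highest median, 1.71, in CAST-/129-.

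Several of the 9 factors also act outside the trophoblast, so that markers of other cells were read beside them. Fibroblast or feeder markers had 2, 2 and 6 of 10 genes up and none down. Beyond counting error 8, 8 and 10 of them were above WT and 1, 1 and 0 below. Of all genes, 19.0%, 17.7% and 18.4% were above and 21.5%, 20.3% and 20.9% below. The summed level of these markers was 19.1 FPKM in WT, 72.0 in CAST+/129-, 76.3 in CAST-/129+ and 392 in CAST-/129-. Col1a1 was at 3.48, 39.0, 38.9 and 174 FPKM, and Lum was at 0 in WT. This order, lowest in WT and highest in the biallelic clone, is also that of Ascl2, Gata2 and Cdx2, and the part of such cells in those levels was not tested. Mesoderm and primitive streak markers had 0, 3 and 4 of 10 genes up and none down. Among those up in CAST-/129+ was Eomes, which is also counted in the trophoblast list above. Beyond counting error 6, 7 and 8 of the 10 were above WT and 1, 1 and 1 below. Their summed levels were 7.82, 25.6, 70.2 and 95.8 FPKM, and T (Brachyury) was at 0.418, 3.16, 10.3 and 36.3. The part of mesoderm cells in the Hand1, Gata2 and Cdx2 levels was not tested.

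Surface ectoderm markers had none of 8 past 3-fold and summed to 19.8, 35.3, 40.6 and 27.7 FPKM. Above WT beyond counting error were 4, 5 and 4 of them, where 19.0%, 17.7% and 18.4% of all genes were. Below WT were 0, 0 and 1. Trp63, 1 of these markers, was at 0, 0, 0.138 and 0.0409 FPKM, beside the low levels of Tfap2a. Blood and macrophage markers summed to 2.82, 5.43, 6.97 and 18.8 FPKM, Hbb-b1 was at 0 in every library, and Tyrobp was the 1 gene of 8 past 3-fold, in CAST-/129-. Primitive endoderm markers, which include Gata4 and Gata6 of the paralog list, had 3 of 10 down and none up in each clone. They summed to 318, 141, 201 and 242 FPKM. Beyond counting error 0, 2 and 2 of the 10 were above WT, among them Foxa2, which also marks endoderm of the embryo, at 1.36, 0.643, 9.05 and 11.4 FPKM. Markers of ESCs had 2, 2 and 5 of 8 down and none up, among them Klf4 at 120, 19.3, 13.9 and 8.29 FPKM and Tfcp2l1 at 86.7, 20.6, 13.8 and 13.3. Beyond counting error 2, 3 and 0 of the 8 were above WT, such as Utf1 at 211, 276, 227 and 148 FPKM. No gene of that list was at 0 in any library, so that all 4 clones carried ESC transcripts beside those of the trophectoderm factors.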

How the data were processed

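RNA-seq of 4 F123 clones (poly(A)+, strand-specific) and 3 ChIP-seq libraries were analysed, 7 libraries with 1 for each condition, as the labels give them. The authors mapped reads to mm9, with Novoalign and USeq for RNA-seq. Bowtie and Novoalign are named in the submitters' processing notes, with versions not given in the sources used here. They deposited aligned positions on which identical alignments share 1 line, with a whole-number count of their reads. Alleles were not told apart and no input library was used here.

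Distinct alignments (5831199 to 24848422 on genes per library) were assigned by midpoint, on the transcript strand, to exonic bases of 1 gene in GENCODE M1, with at least 200 such bases. FPKM used alignments on genes as library size. A pseudo-value of 4 and 3-fold were the rule for a call. Intervals are exact Poisson, or exact binomial for ratios, and a count of 0 was given a floor of 3. ChIP-seq values are 5′ ends over the library's genome mean. The promoter sequence of 1 member is not reported here. Simulated data of known fold were used to check the rule, with changes placed only in genes well expressed in WT. Of the members only Tead4 was at such a level in WT, so that the check does not cover the others.

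The members and lists were chosen with earlier results of these data known. All 9 members are named, and for each called member the 3 nearest genes. Genes past 3-fold in any clone are named for the trophoblast, Hippo and paralog lists, with the highest other gene of the Hippo list. Of the marker lists of ESCs and other cells, only some such genes are named. Regions and bins of H3K27ac, exon starts and Sap30l were chosen after the data were seen. Alternatives changed library size, collapsing, depth, strand, pseudo-value, threshold, filter, window and start. Values were computed with scipy 1.17.1, numpy 2.4.6 and pandas 2.3.3 in Python 3.11.15 and drawn with matplotlib 3.10.9.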

Additional observations from a re-analysis of the deposited data

How the results depend on the processing

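No paired analysis was possible because each genotype, and each mark in each line, has 1 library, and for the same reason no library could be left out. With a pseudo-value of 1, 4 members passed 3-fold up in CAST+/129- and 4 in CAST-/129+ (Gata2, Gata3, Elf5 and Hand1 in both). With a pseudo-value of 10, 0 passed in CAST-/129-, where both Hand1 and Ascl2 were lost. With all distinct alignments as library size, 1 passed in CAST-/129- (Hand1). At a threshold of 2-fold, 2 passed up in CAST+/129- (Tfap2c and Hand1), 4 in CAST-/129+ (Gata2, Tfap2c, Elf5 and Hand1) and 1 down (Tead4). For H3K27ac in F123, 0 promoters passed 10 times the mean and 1 (Tead4) passed 5 times the mean of its own chromosome, and in J1 0 passed 10 times the mean. The cause of these differences was not tested, beyond what the settings themselves change. The other 44 recomputed counts of members stayed within 1.5 times the main count, though some changed members. In CAST-/129- Gata2 joined Hand1 and Ascl2 with a pseudo-value of 1 and at 2-fold. For H3K4me3, Ascl2 was lost with reads before collapsing, at 10 times the mean and against the mean of its own chromosome, and Tfap2a was gained in a window of 1 kb and at the transcript start with the most alignments.

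Over all 31498 genes, 287, 427 and 701 were up and 348, 407 and 565 down in CAST+/129-, CAST-/129+ and CAST-/129- with a pseudo-value of 1, 50, 75 and 120 up and 24, 32 and 50 down with 10, and 285, 384 and 630 up and 401, 482 and 605 down at 2-fold, beside 101, 149 and 258 up and 96, 104 and 161 down in the main setting. With all distinct alignments as library size 86, 111 and 209 were up and 62, 82 and 106 down.

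Of the levels and ratios recomputed for single members, 248 stayed within their counting interval and 64 did not, 29 of these with reads before collapsing, 23 with all alignments as library size and 12 after thinning. Of 132 recomputed ratios of a member to WT, 1 changed side, that of Tfap2a in CAST+/129- after thinning to the smallest library (110% of WT against 85.5%). Elf5 in CAST+/129- and CAST-/129+ was at 3084% and 6366% of WT with both strands counted, against 7728% and 15584%, and in CAST-/129- at 170% with both strands, 252% with reads before collapsing and 242% after thinning, against 426%. Counting reads before collapsing put Ascl2 in CAST-/129- at 1400% of WT against 901%, Gata3 at 1438% against 944% and Cdx2 at 4730% against 2237%, and Cdx2 in CAST+/129- and CAST-/129+ at 1680% against 997% and 3273% against 1538%. Thinning put Ascl2 at 551%, 551% and 1564% of WT in CAST+/129-, CAST-/129+ and CAST-/129- against 343%, 329% and 901%. The depth limits Cdx2, Elf5 and Tfap2a, and with WT thinned, Cdx2 had no alignment there and no ratio.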
